A study of Mus musculus with 12 samples.

Results

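The comparison described here is the enrichment of RNA in MIWI immunoprecipitates (IP over input) of Miwi ADH/- late spermatocytes set against that of Miwi +/- late spermatocytes. It uses the IP and the input of both genotypes, which the labels give as 8 samples of the 12 in the series. The deposited table holds 1 column for each of these 4 groups, so the comparison has no replicate error and no p-value. The measure was the difference of log2(RPKM + 1) between IP and input in Miwi ADH/-, minus the same difference in Miwi +/-, relative to the median of all genes. RPKM is reads per 1000 bases of gene length and per 1000000 reads. Genes had to reach 1 RPKM in 2 or more of the 6 columns, which 12246 of 20345 did. The question is which RNAs are held more or less by MIWI when its catalytic site is mutated.

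MIWI is the PIWI protein of mouse meiotic and early haploid male germ cells. It carries pachytene piRNAs, which guide it to RNAs with matching sequence, and PIWI proteins with an intact catalytic site can cut the RNA they are guided to. MIWI also associates with messenger RNAs of spermatogenic cells. The ADH allele is known as a mutation of the catalytic residues that leaves a protein able to bind piRNAs. The Miwi ADH/- cells carry this allele over a null allele, and the Miwi +/- cells carry a wild-type allele over a null allele, so that every cell compared has a single coding copy of the gene. The Miwi -/- cells have no coding copy, and their IP gives the background of the antibody. RNA was depleted of ribosomal RNA before sequencing. Per the labels' protocols it came from testes or from sorted cells. The labels do not say which samples were sorted, and they give no age for the animals.

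The genes are listed by Ensembl ID only, and none of the IDs could be paired with a name in the tables used here. Gene groups are therefore described by position in the comparison, by level, by read number and by length, and only a few IDs are printed. Without names, Miwi itself could not be looked up, and the pathway lists and the markers of late spermatocytes and of other testis cells gave no values, so that the labelled cell type was not checked. Fewer cells of a type and less RNA per cell cannot be told apart in such samples. Reads per gene were recovered from the steps of the RPKM values. Read totals derived from them came to 10581440 (Miwi ADH/-) and 5887992 (Miwi +/-) in the IPs and to 5488739 (Miwi ADH/-) and 7491658 (Miwi +/-) in the inputs. Of these reads, 35.0% (Miwi ADH/-) and 29.3% (Miwi +/-) fell in listed genes in the IPs, and 47.9% and 52.3% did so in the inputs of the same genotypes. The totals hold up to a common factor, while the reads per gene do not depend on it.

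For most RNAs the enrichment with the 2 forms of the protein differed by less than 2-fold, and a minority stood further apart in either direction. Relative to the median, 1303 genes (10.6% of those kept) were at least 2-fold higher in Miwi ADH/- and 1642 (13.4%) were at least 2-fold lower. These are counts by size, not by a test. The distribution was centred closely, with 47.9% of the genes within 0.5 of the median on the log2 scale and a middle 50% between -0.57 and 0.49. At a 4-fold difference 225 genes were higher and 383 lower, and at 8-fold 42 were higher and 78 lower. The balance between the directions depends on the scale. On the deposited scale the median gene was 0.38 higher in Miwi ADH/- (log2), and there 2509 genes were higher and 926 lower, so that 73.0% of the counted genes were higher, against 44.2% relative to the median. Scaling the columns to equal totals gave 58.5%.

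The plot of IP enrichment in both genotypes shows that the counted genes came from the whole range of enrichment. Among the 1303 genes that were higher in Miwi ADH/-, the median enrichment relative to all genes was 0.51 in Miwi ADH/- and -1.01 in Miwi +/- (log2). Among the 1642 lower genes it was -0.63 in Miwi ADH/- and 0.94 in Miwi +/-. These values describe the 2 groups of genes, which were chosen on the same columns.

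**Figure D1:**
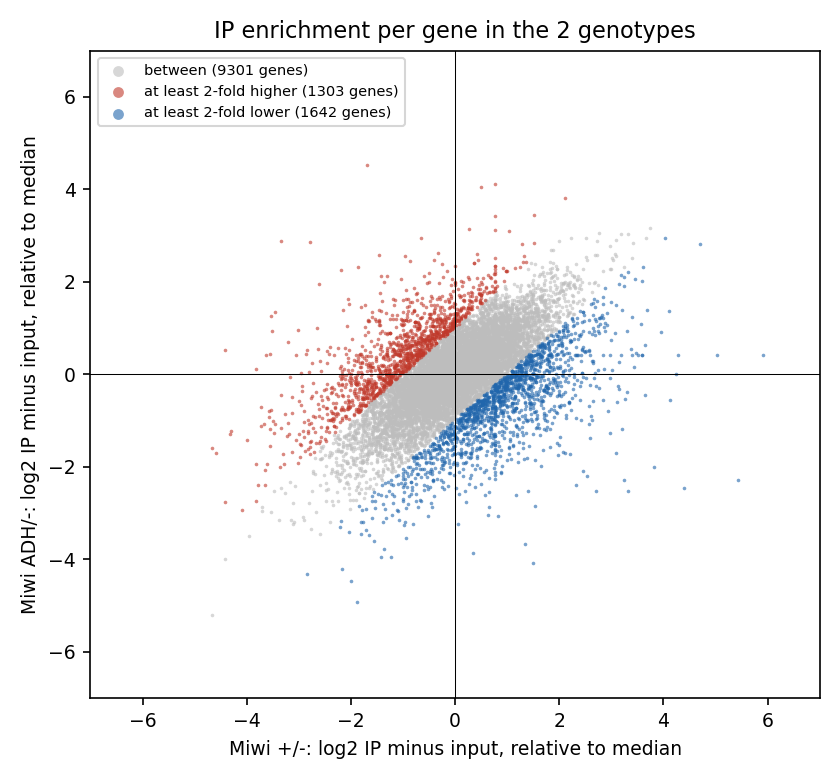
Log2 difference of IP and input per gene, relative to the median of all genes, in Miwi ADH/- (vertical axis) and in Miwi +/- (horizontal axis), for 12246 genes. Each point is a gene. Red points are the 1303 genes at least 2-fold higher in Miwi ADH/-, blue points the 1642 at least 2-fold lower and grey points the 9301 between them. Red and blue points form bands on both sides of the diagonal.

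Genes at least 2-fold from the median IP enrichment in one genotype were mostly not reversed in the other. The medians themselves lay below input, at -0.41 in Miwi ADH/- and -0.77 in Miwi +/- (log2). In Miwi -/- the median was -1.37. A gene 2-fold above the median is therefore not 2-fold above its input by that alone. The lists below were not set against the Miwi -/- IP. In Miwi ADH/- 1472 genes (12% of those kept) were at least 2-fold above the median IP enrichment, and in Miwi +/- 1890 (15.4%) were. These lists shared 677 genes, which is 46.0% of the Miwi ADH/- list and 35.8% of the Miwi +/- list. At the other end 1640 genes (13.4%) lay at least 2-fold below the median in Miwi ADH/- and 1894 (15.5%) in Miwi +/-, with 806 in common, or 49.1% and 42.6% of the 2 lists. A full reversal was rare: 51 genes were at least 2-fold above the median in Miwi ADH/- and at least 2-fold below it in Miwi +/-, and 74 genes the other way round. Of the 1303 higher genes, 388 were above the median by 2-fold in Miwi ADH/-, and 655 were below it by 2-fold in Miwi +/-. Of the 1642 lower genes, 562 were below the median by 2-fold in Miwi ADH/-, and 777 were above it by 2-fold in Miwi +/-.

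The most extreme genes were short and thinly read. Of the 20 highest, 16 were under 300 bases, and 16 had 0 reads in at least 1 of the 4 columns. Of the 20 lowest, 9 were under 300 bases and 15 had 0 reads in at least 1 column. The lengths follow from the read totals and depend on the same factor. The 2 highest and the 2 lowest are given here with all their values.

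ENSMUSG00000077345 stood highest, with a difference of 6.20 on the log2(RPKM + 1) scale. Its Miwi ADH/- IP had 16.3 RPKM (15 reads) over an input with 0 reads. Its Miwi +/- IP had 1.95 RPKM (1 read) over an input of 15.3 RPKM (10 reads). The difference of ENSMUSG00000065899 was 6.19. Its Miwi ADH/- IP had 12.2 RPKM (17 reads) over an input of 1.38 RPKM (1 read). Its Miwi +/- IP had 0 reads over an input of 16.2 RPKM (16 reads). Both RNAs were thus high in the IP of the mutant protein and low in its input, the reverse of Miwi +/-.

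ENSMUSG00000077192 was lowest, at -7.76, with 0 reads in the Miwi ADH/- IP over an input of 5.52 RPKM (4 reads). Its Miwi +/- IP had 24.4 RPKM (19 reads) over an input with 0 reads. ENSMUSG00000064540 followed at -6.86, with 1.45 RPKM (1 read) in the Miwi ADH/- IP over an input of 16.8 RPKM (6 reads). Its Miwi +/- IP had 36.6 RPKM (14 reads) over an input of 2.05 RPKM (1 read). No fold change is given for these genes, since each has a column with at most 1 read. In the Miwi -/- IP the 4 genes had 1, 5, 3 and 0 reads, in the order in which they are described.

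The difference in enrichment is the difference between the IPs minus the difference between the inputs, and both parts contributed. Between the IPs, 1600 genes (13.1%) were at least 2-fold higher in Miwi ADH/- than in Miwi +/- and 1314 (10.7%) were lower, relative to the median. Between the inputs, 1273 genes (10.4%) were higher and 546 (4.46%) were lower. The input thus leaned towards genes that were higher in Miwi ADH/-. That lean depends on the scale too, since 70.0% of the counted input genes were higher relative to the median, against 51.2% on the deposited scale and 46.0% with equal column totals.

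Of the genes counted as higher, 58.5% had at least 2-fold more RNA in the mutant IP relative to the median, against 13.1% of all kept genes. The IP is one of the parts on which they were chosen. Of these 1303 genes, 762 were at least 2-fold higher in the Miwi ADH/- IP, and 655 of the 762 had inputs less than 2-fold apart. For 169 genes the input was at least 2-fold lower in Miwi ADH/- while the IPs were less than 2-fold apart, and 47 genes had both. In 369 neither part reached 2-fold by itself. The remaining 63 genes had the IP and the input displaced in the same direction, upwards in 60 and downwards in 3.

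Genes counted as lower were likewise displaced in the IP or in the input. Of these 1642 genes, 816 were at least 2-fold lower in the Miwi ADH/- IP, and 708 of the 816 had inputs less than 2-fold apart. For 409 genes the input was at least 2-fold higher in Miwi ADH/- while the IPs were less than 2-fold apart, and 85 genes had both. In all, 33.0% of the lower genes had a higher input by 2-fold, and 16.8% of the higher genes had a lower one. Among all kept genes these shares were 10.4% and 4.46%, and the input is one of the parts on which both sets were chosen. Across the 12246 genes the IP difference and the input difference had a Pearson correlation of 0.35 and a Spearman correlation of 0.35. This describes genes, which share the 4 columns and are not replicates.

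**Figure D2:**
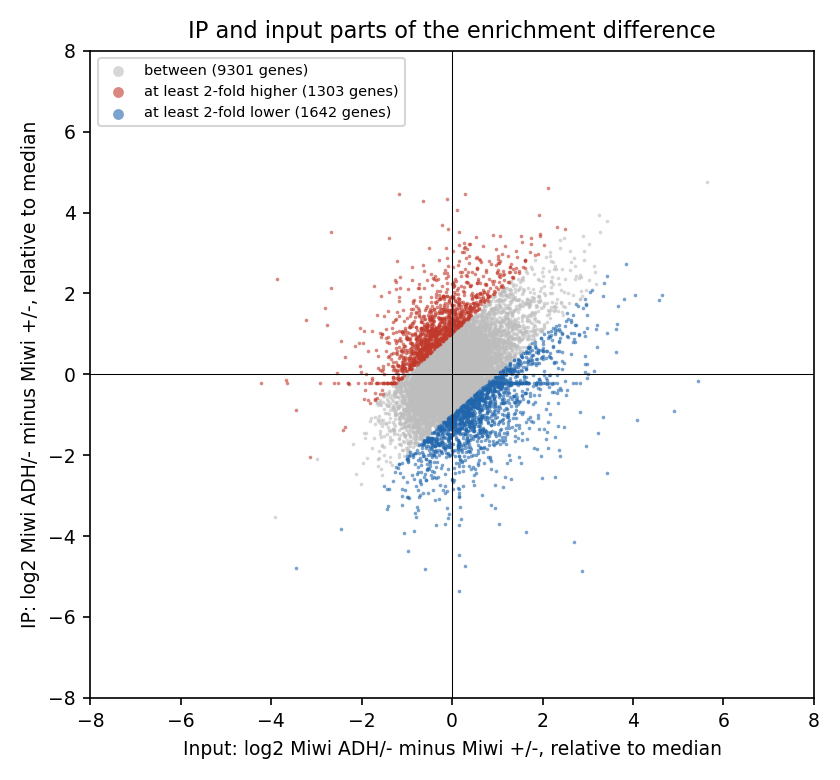
Log2 difference between Miwi ADH/- and Miwi +/- per gene in the IP (vertical axis) and in the input (horizontal axis), each relative to its median over 12246 genes. Each point is a gene, coloured by the enrichment difference as in the legend. The horizontal row of points just below 0 holds genes with 0 reads in both IPs, of which there were 281, so that their enrichment difference comes from the inputs alone.

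Where the inputs were alike, less of the difference can come from them, although inputs up to 0.5 apart (log2) still add to it. Of the kept genes, 7097 had inputs within 0.5 of the median difference on the log2 scale. Among them 612 (8.62%) were at least 2-fold higher in Miwi ADH/- and 639 (9.0%) were lower. Among the other 5149 genes the shares were 13.4% and 19.5%. The 612 higher genes had median levels of 4.98 RPKM in the Miwi ADH/- IP and 0.836 in the Miwi +/- IP, with inputs at 5.44 and 6.83 RPKM. The 639 lower genes had median levels of 1.06 RPKM in the Miwi ADH/- IP and 3.93 in the Miwi +/- IP, with inputs at 3.23 and 3.40 RPKM. With inputs alike, the direction of these IP differences follows from how the genes were chosen. The RNAs had median lengths of 1289 bases for these higher and 1445 for these lower genes. Both lay below the median of 1617 bases over all kept genes.

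Among the genes with inputs alike, 3226 had at least 5 RPKM in each of the 4 columns, and the 2 highest and 2 lowest of them are given here; this choice was made after their values were seen. ENSMUSG00000065146, of 68 bases, had a Miwi ADH/- IP of 51.4 RPKM over an input of 37.5. Its Miwi +/- IP was at 12.5 RPKM over an input of 47.1. The ratio of IP to input was 3.97-fold higher in Miwi ADH/- relative to the median, with a 95% counting interval of 1.14 to 15.5 that rests on 37 and 5 IP reads. ENSMUSG00000029310, of 909 bases, was more deeply read. Its Miwi ADH/- IP was at 31.8 RPKM (306 reads) over an input of 61.9 (309 reads). Its Miwi +/- IP was at 9.71 RPKM (52 reads) over an input of 98.4 (670 reads). Relative to the medians its IP difference was 1.41 and its input difference -0.497 (log2), so that the input added to the difference. Its ratio of IP to input was 4.0-fold higher relative to the median (2.87 to 5.63), and its Miwi -/- IP was at 1.05 RPKM with an input of 96.2.

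The 2 lowest genes with inputs alike were again short. ENSMUSG00000088604, of 127 bases, had a Miwi ADH/- IP of 11.2 RPKM over an input of 44.5, against a Miwi +/- IP of 101.6 RPKM over an input of 44.1. Its ratio of IP to input was 11.9-fold lower in Miwi ADH/- relative to the median (5.49 to 26.5), from 15 and 76 IP reads. The Miwi -/- IP had 3.77 RPKM with an input of 53.2, so that this RNA stood above its input in the Miwi +/- IP alone among the 3 IPs. ENSMUSG00000088529, of 193 bases, had a Miwi ADH/- IP of 5.39 RPKM over an input of 129, against a Miwi +/- IP of 46.6 RPKM over an input of 189. Its ratio was 7.72-fold lower in Miwi ADH/- relative to the median (3.82 to 16.9). The Miwi -/- IP had 24.8 RPKM of it (20 reads, against 11 in the Miwi ADH/- IP) with an input of 181, so that the Miwi ADH/- IP was the lowest of the 3 IPs for this RNA.

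**Figure D3:**
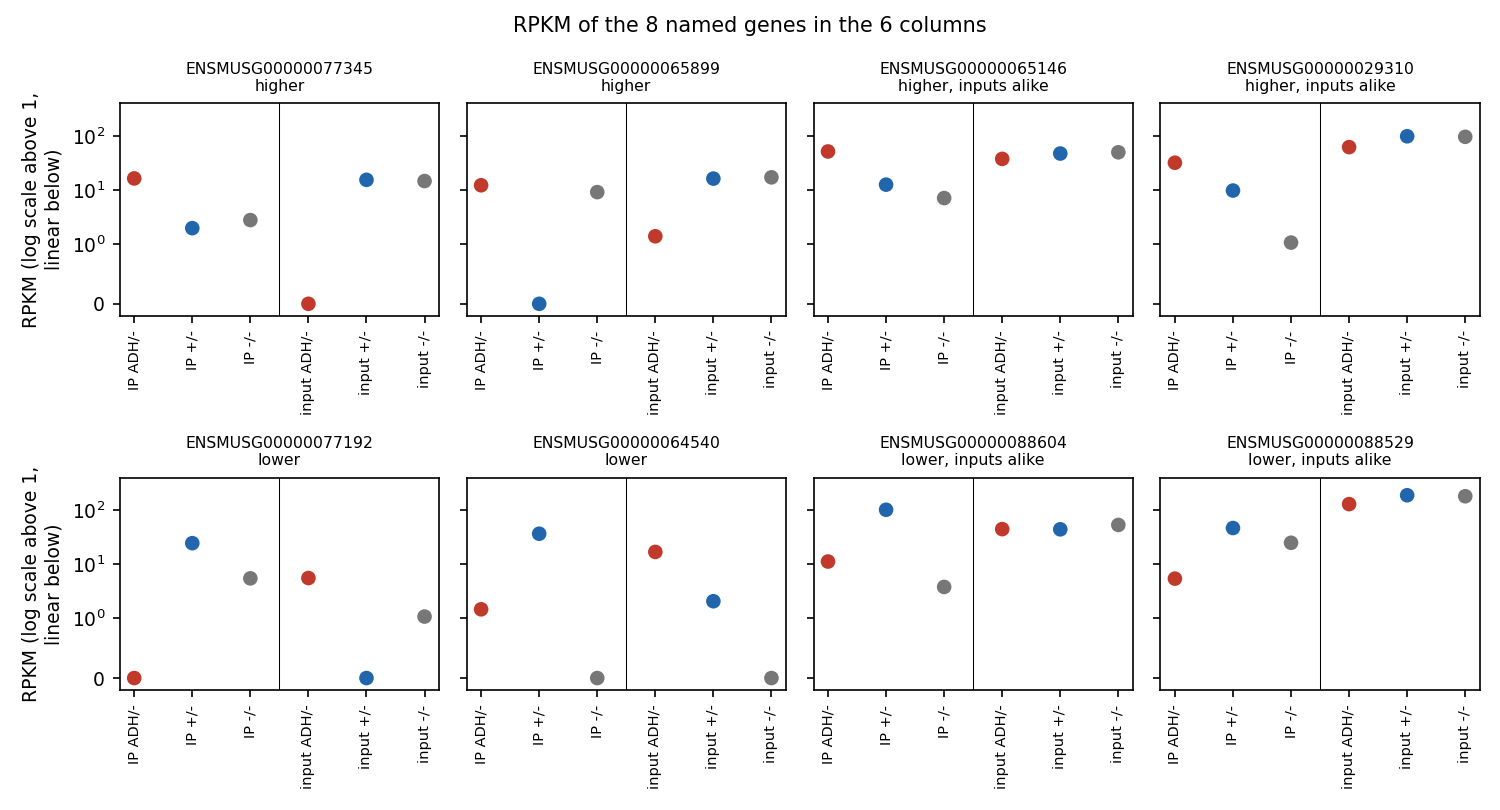
RPKM of the 8 named genes (vertical axis, logarithmic above 1 and linear below) in the IPs and inputs of Miwi ADH/- (red), Miwi +/- (blue) and Miwi -/- (grey), with 1 point per deposited column. The 4 genes on the left are the extremes of all kept genes and have columns at or near 0. The 4 on the right are the extremes among genes with inputs alike. In them the inputs of Miwi ADH/- and Miwi +/- lie closer together than the IPs do.

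Many genes had reads in one IP and none in the other. Among the kept genes, 903 had reads in the Miwi ADH/- IP and 0 in the Miwi +/- IP, and 348 the reverse. A further 281 were at 0 in both IPs. With these included, 629 were at 0 in the Miwi ADH/- IP and 1184 in the Miwi +/- IP. In the inputs of Miwi ADH/- and Miwi +/- 141 and 229 were at 0. Of the 1303 genes counted as higher, 408 (31.3%) were at 0 in the Miwi +/- IP, and 374 of the 408 had reads in the Miwi ADH/- IP. Of the 1642 counted as lower, 273 (16.6%) were at 0 in the Miwi ADH/- IP, and 206 of the 273 had reads in the Miwi +/- IP. Among all kept genes these shares were 9.67% for the Miwi +/- IP and 5.14% for the Miwi ADH/- IP.

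The zeros reached genes with substantial reads in the partner column. At least 20 reads in the Miwi ADH/- IP and 0 in the Miwi +/- IP were found for 369 genes, with a median of 33 and a maximum of 411 reads in the Miwi ADH/- IP. Their inputs had medians of 18 reads in Miwi ADH/- and 15 in Miwi +/-, and 220 of the 369 were at 0 in the Miwi -/- IP too. The opposite, at least 20 reads in the Miwi +/- IP and 0 in the Miwi ADH/- IP, was found for 52 genes. Of the 1402 genes with 20 to under 40 reads in the Miwi ADH/- IP, 228 were at 0 in the Miwi +/- IP, or 16.3% (exact 95% binomial interval 14.4% to 18.3%). The read total of the Miwi +/- IP was 0.556 times that of the Miwi ADH/- IP, and the median of these genes in it was 12 reads. Between the inputs, 13 of 1733 genes with 20 to under 40 reads in the Miwi ADH/- input were at 0 in the Miwi +/- input, or 0.750% (0.400% to 1.28%). That Miwi +/- input had 1.36 times the read total, and the median of these genes in it was 44 reads. In the other direction the read total was 0.733 times as large and the median 18 reads. There 11 of 1498 genes were at 0 in the Miwi ADH/- input, or 0.734% (0.367% to 1.31%). Zeros at a given read number were thus more frequent between the IPs than between the inputs, and the counting intervals above take no account of this. Of the 369 genes above, 208 were counted as higher, and of the 52 genes 47 were counted as lower. Without genes at 0 in either IP, and with the median taken anew, 918 of 10714 genes (8.57%) were higher and 1302 (12.2%) lower. Beyond these counts, the part of the more frequent zeros in the numbers of higher and lower genes was not tested.

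**Figure D4:**
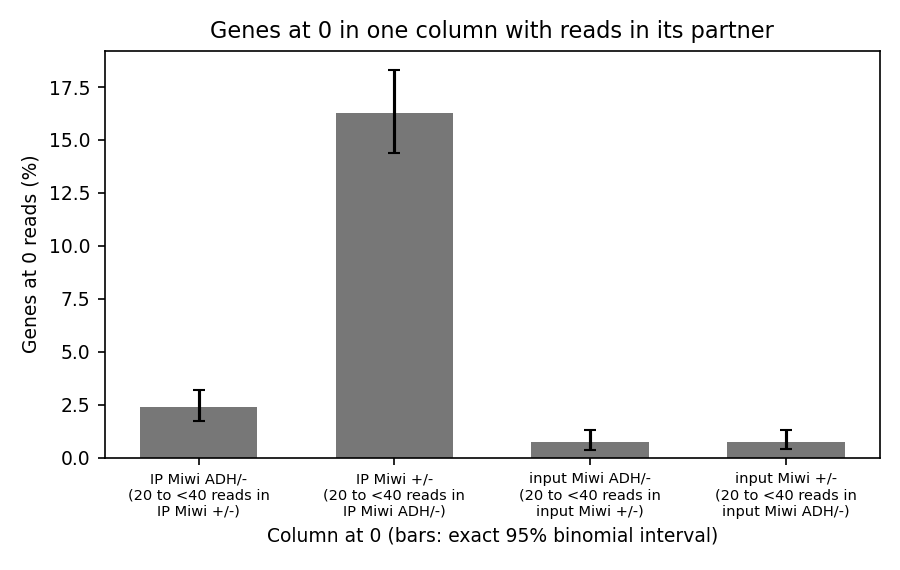
Share of genes at 0 reads in each of the 4 columns (vertical axis, percent), among genes with 20 to under 40 reads in the same fraction of the other genotype. Whiskers are exact 95% binomial intervals, which cover counting error only. The share is 2.38% for the Miwi ADH/- IP, 16.3% for the Miwi +/- IP, and 0.734% and 0.750% for the inputs of Miwi ADH/- and Miwi +/-.

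The share of counted genes was lowest among the most deeply read genes, and the balance of directions differed with read number. Among the 864 genes with fewer than 30 reads summed over the 4 columns, 14.9% were higher in Miwi ADH/- and 29.6% lower. Among the 2951 genes with 100 to under 300 reads these were 14.3% and 17.4%. Among the 2788 genes with 1000 or more reads they were 2.83% and 1.58%, or 79 and 44 genes. The standard deviation over genes of the enrichment difference was 1.47 in the first of these classes and 0.48 in the last. Among the 6258 genes with at least 300 reads, 414 (6.62%) were higher and 353 (5.64%) lower. These classes are set against the median of all kept genes, above which the median of the genes with at least 300 reads lay by 0.07 (log2). A filter on each column gave the other balance: with at least 20 reads in each of the 4 columns and the median taken anew, 351 genes were higher and 582 lower. Which direction prevailed among well-read genes thus depended on how they were chosen and centred.

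**Figure D5:**
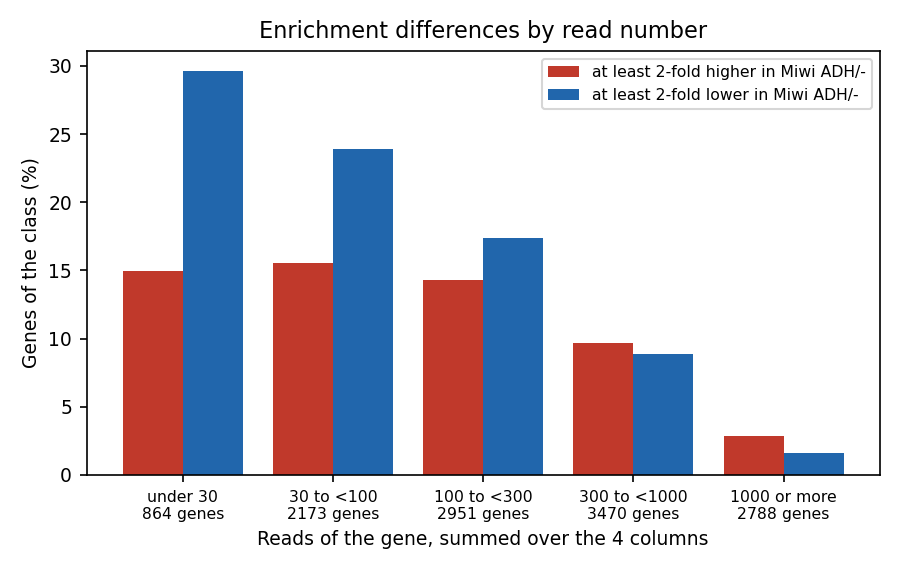
Share of genes (vertical axis, percent) at least 2-fold higher (red) and at least 2-fold lower (blue) in Miwi ADH/- relative to the median, by the reads of the gene summed over the 4 columns (horizontal axis, with the number of genes per class). Both shares are lowest in the class of 1000 or more reads, at 2.83% and 1.58%, and lower genes outnumber higher ones only in the 3 classes under 300 reads.

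Among all kept genes, short RNAs were counted more often than long ones in both directions. Of the 346 genes under 300 bases, 25.4% were higher in Miwi ADH/- and 29.5% lower. The class of 300 to under 1000 bases held 2735 genes, with 15.9% higher and 21.0% lower. At 4000 bases or more, 2.96% of 1013 genes were higher and 4.74% lower. Class medians of the difference lay close to 0, between -0.09 for the shortest class and 0.03 for genes of 2000 to under 4000 bases. In the class of 300 to under 1000 bases the IPs and the inputs were both higher in Miwi ADH/-, at medians of 0.26 and 0.30 relative to all genes, and the 2 shifts nearly cancelled in the enrichment, at -0.03. Among genes with at least 300 reads, 9.38% in that class were higher and 9.28% lower. Among the 741 longest of them 2.83% were higher and 3.37% lower. Only 33 of the shortest genes had as many reads, of which 2 (6.06%) were higher and 5 (15.2%) lower. Among well-read genes the share of higher genes in the shortest class was thus not above that of the next class. The share of lower genes was above it, and both shares rest on few genes.

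The Miwi -/- IP gives the antibody background for these RNAs. Of the 1303 higher genes, 68.0% were at least 2-fold above the Miwi -/- IP in the Miwi ADH/- IP (log2(RPKM + 1)), and 18.6% were in the Miwi +/- IP. Of the 1642 lower genes, 36.5% were above it in the Miwi ADH/- IP and 63.1% in the Miwi +/- IP. Among all kept genes these shares were 51.8% for Miwi ADH/- and 42.1% for Miwi +/-. They are on the deposited scale and not relative to a median. On that scale the median kept gene lay above the Miwi -/- IP by 1.05 in the Miwi ADH/- IP and 0.77 in the Miwi +/- IP (log2). The Miwi -/- IP had a read total of 4172623, of which 18.2% fell in listed genes, and 2897 kept genes were at 0 in it. The comparisons share the Miwi -/- IP and the IP columns on which the genes were chosen, so these shares describe the genes and are no independent measure.

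Median levels place the same groups in all columns. The higher genes had medians of 4.57 RPKM in the Miwi ADH/- IP, 0.759 in the Miwi +/- IP and 0.490 in the Miwi -/- IP, over inputs of 4.11, 6.28 and 4.18 RPKM in the same order of genotypes. A high Miwi ADH/- IP and a low Miwi +/- IP are what chose these genes. The lower genes had medians of 1.44 RPKM in the Miwi ADH/- IP, 3.56 in the Miwi +/- IP and 0.277 in the Miwi -/- IP, over inputs of 4.27, 2.61 and 2.81 RPKM. Among genes with at least 300 reads, the 414 higher ones had 11.5, 4.17 and 2.28 RPKM in the 3 IPs in that order, and the 353 lower ones had 7.55, 10.4 and 2.19. The IP-minus-input values of Miwi -/- use columns that do not enter the difference between Miwi ADH/- and Miwi +/-, although they counted in the filter on low values. Relative to the median of all kept genes they had medians of -0.75 for these higher genes, -0.06 for these lower genes and -0.41 for all genes with as many reads. The middle 50% of the higher genes ran from -1.76 to 0.18 and that of the lower genes from -1.17 to 0.90, so that the 2 groups overlapped.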

How the data were processed

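MIWI IP and input RNA of late spermatocytes of 3 genotypes was sequenced. Per the submitters' processing notes, the tools TopHat and Bowtie and the build mm9 are listed; their versions and roles, the counting tool and the annotation are not stated. The authors deposited RPKM values in 6 columns, 1 per group. Per the file headers only the Miwi +/- columns are RPKM; the same unit was assumed for the others, whose values rise in the same steps. The headers do not say whether a column pools the 2 samples of its group.

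A gene's RPKM values are whole reads times a step. Reads were taken as the smallest whole numbers that fit within 0.001 reads plus 5e-08 of the read number, which all 17452 genes with values in several columns had; reads that share a common factor come out smaller by it. Read totals were chosen among those at which listed genes hold at most 100% of the reads, by the share of lengths that came out whole (0.455, against 0.288 for the next).

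Differences used log2(RPKM + 1), which understates changes of low genes, relative to the median of the 12246 genes that reach 1 RPKM in 2 or more columns. Genes at least 2-fold apart were counted. Intervals are exact (conditional odds ratio or Clopper-Pearson, 95%) and leave out all error but that of counting, in which PCR copies pass for molecules. Scripts ran in Python 3.11.15 with scipy 1.17.1 and were tested on simulated data. The limma model planned for replicate columns was not run, because each group has 1 column. The naming rule allowed the 2 highest and 2 lowest genes where no symbols are paired with the IDs; the reference gene table matched 0 IDs, so the 23 gene lists and markers gave no values. The comparison, lists and rules were chosen with earlier results of these data known.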

Additional observations from a re-analysis of the deposited data

Results flagged for a closer look

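In 51 genes the enrichment of IP over input was at least 2-fold above the median in Miwi ADH/- and at least 2-fold below it in Miwi +/-. In 74 genes it was the other way round. These genes stand out because the enrichment, from 1 IP and 1 input column per genotype, lies on opposite sides of its median. Either column can place a gene there. The difference was not tested, since there is 1 column per group.

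Of the 8 named genes, 6 also lay on opposite sides of the median in the 2 genotypes. All 8 were chosen as extremes of the difference between these genotypes, a choice that favours opposite sides. The enrichment differences, Miwi ADH/- minus Miwi +/- on the log2(RPKM + 1) scale, were 6.20 for ENSMUSG00000077345, 6.19 for ENSMUSG00000065899 and 1.90 for ENSMUSG00000065146. They were -7.76 for ENSMUSG00000077192, -6.86 for ENSMUSG00000064540 and -3.47 for ENSMUSG00000088604. None of these differences was tested.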

How the results depend on the processing

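No paired analysis was possible because each group has 1 column, which carries no replicate number; for the same reason no replicate could be left out. In 13 alternatives, 2 of them chosen after seeing the data (a filter on the 4 columns compared, and leaving out genes at 0 in either IP), the counts stayed within 1.5 times those reported in 34 cases and moved further in 42. No named gene changed direction in the alternatives that kept it, but ENSMUSG00000077192 moved to -3.85 with a pseudocount of 5, against -7.76, and ENSMUSG00000088529 to -4.40 with the Miwi -/- IP subtracted, against -2.74. The counts run in the order enrichment higher and lower, IP higher and lower, input higher and lower, and only those that moved are given. A pseudocount of 5, which shrinks low genes, gave 327, 432, 436, 208, 387 and 96. A pseudocount of 0.1 gave 2259 for enrichment higher, 2477 for IP higher and 1176 for input lower. Fewer genes entered the stricter filters: at least 1 RPKM in each of the 4 columns gave 550, 810, 685, 550, 578 and 195 of 8332 genes, at least 5 RPKM gave 160, 279, 246, 153, 222 and 71 of 4699, and at least 20 reads gave 351, 582, 444, 401, 347 and 126 of 7316. With inputs within 1.5-fold, 669, 762, 749 and 681 of 7927 genes were counted. Without a filter 20345 genes entered, and enrichment higher was 2244 (11.0%), IP higher 2458 (12.1%) and input lower 1100 (5.41%). With the filter these shares were 10.6%, 13.1% and 4.46%. The deposited scale gave 2509 and 926 for enrichment and 909 for input lower. Median-of-ratios scaling gave 346 for input lower, with 49.9% of counted genes higher in enrichment and 75.9% in the input, and equal column totals gave 747 and 877 for the input. Subtracting the Miwi -/- IP gave 2502 for IP higher, and leaving out genes at 0 in either IP gave 349 for input lower; the cause was not tested. Depth limits the genes with few reads most.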
